A study of Mus musculus with 4 samples.

Results

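The hippocampal neuropil spots are 400 Visium-FFPE spots, 100 in each of 4 coronal brain sections, out of 13452 kept spots. They were chosen on measured values. In each section, the 50 spots highest for the dentate gyrus (DG) genes Dsp, C1ql2 and Prox1, the 50 highest for the CA1 genes Fibcd1, Spink8 and Wfs1 and the 50 highest for the CA2-3 genes Grik4, Ptgs2 and Iyd were taken out as cell layer spots. Of the rest, the 100 spots with the highest mean of ln(1 + UMIs per 10000 spot UMIs) over Cabp7, Thbs4, Wipf3, Gm2115 and Ddn became the members. A UMI is the molecular tag that marks a captured probe molecule. Because these 14 genes chose the spots, and every other gene was measured in the same spots, all differences between the members and other spots are given as a description without a test. The comparison of diets was not part of the rule and was tested.

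The sections came from wild-type C57BL/6J male offspring at postnatal day 21. Their mothers, 8 weeks old at the start, ate folic acid (FA) at 2 mg/kg (MF, labelled median folate, 2 sections) or 20 mg/kg (HF, labelled high folate, 2 sections) for 2 weeks before mating and on through pregnancy and lactation. The methods call the 2 sections of each diet biological replicates, and the number of litters behind them was not stated in the sources used here. A spot is a small area of tissue that holds several cells and parts of cells, so the members are places, not a cell type.

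Hippocampal neuropil is the tissue between the tightly packed layers of neuron cell bodies. It holds the dendrites and axons of the CA1, CA2-3 and DG neurons, their synapses, scattered interneurons, astrocytes, microglia, vessels and some myelinated fibres. Some mRNAs are carried out of the cell body into dendrites, where they are translated near synapses, and such transcripts can be abundant in tissue with few neuron cell bodies.

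The members formed an arc around and between the CA1, CA2-3 and DG layers in all 4 sections. Members that touched a layer spot numbered 64 and 76 with MF and 73 and 64 with HF. In the same order, 55, 54, 43 and 61 members lay nearest to CA1, 14, 23, 14 and 17 nearest to the DG, and 17, 16, 19 and 11 nearest to CA2-3, counted to layer spots that stood in clusters. Another 14, 3, 13 and 9 lay equally far from more than 1 layer. A few members were stray spots: 0, 4, 11 and 2 lay more than 6 spot pitches (1 pitch is the distance between neighbouring spots) from every layer, and 3, 15, 23 and 11 had no other member next to them. HF replicate 1 held the most stray spots, so the tests and the counts of genes at least 2-fold higher were also made without them. The other descriptive counts were made with all members. The CA2-3 layer spots were themselves loosely placed, with only 28, 17, 18 and 25 of 50 having at least 2 others of their kind within 2 pitches. Some lay outside the hippocampus, far from the members, as at x 13.5 and y 44.2 pitches in MF replicate 1. Clustered CA1 layer spots also lay far from the DG in HF replicate 1. Members at 24.0 and 27.2 pitches from the DG were counted nearest CA1 there. The cell layer spots were thus not purely cell layers. Ratios to the layers below use all of these spots unless clustered layer spots are named. The last members inside the threshold scored 1.073, 1.031, 1.072 and 1.207, and the first spots outside scored 1.072, 1.03, 1.066 and 1.207. All 5 rule genes were detected together in 66, 29, 29 and 40 of the 100 members.

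**Figure D1:**
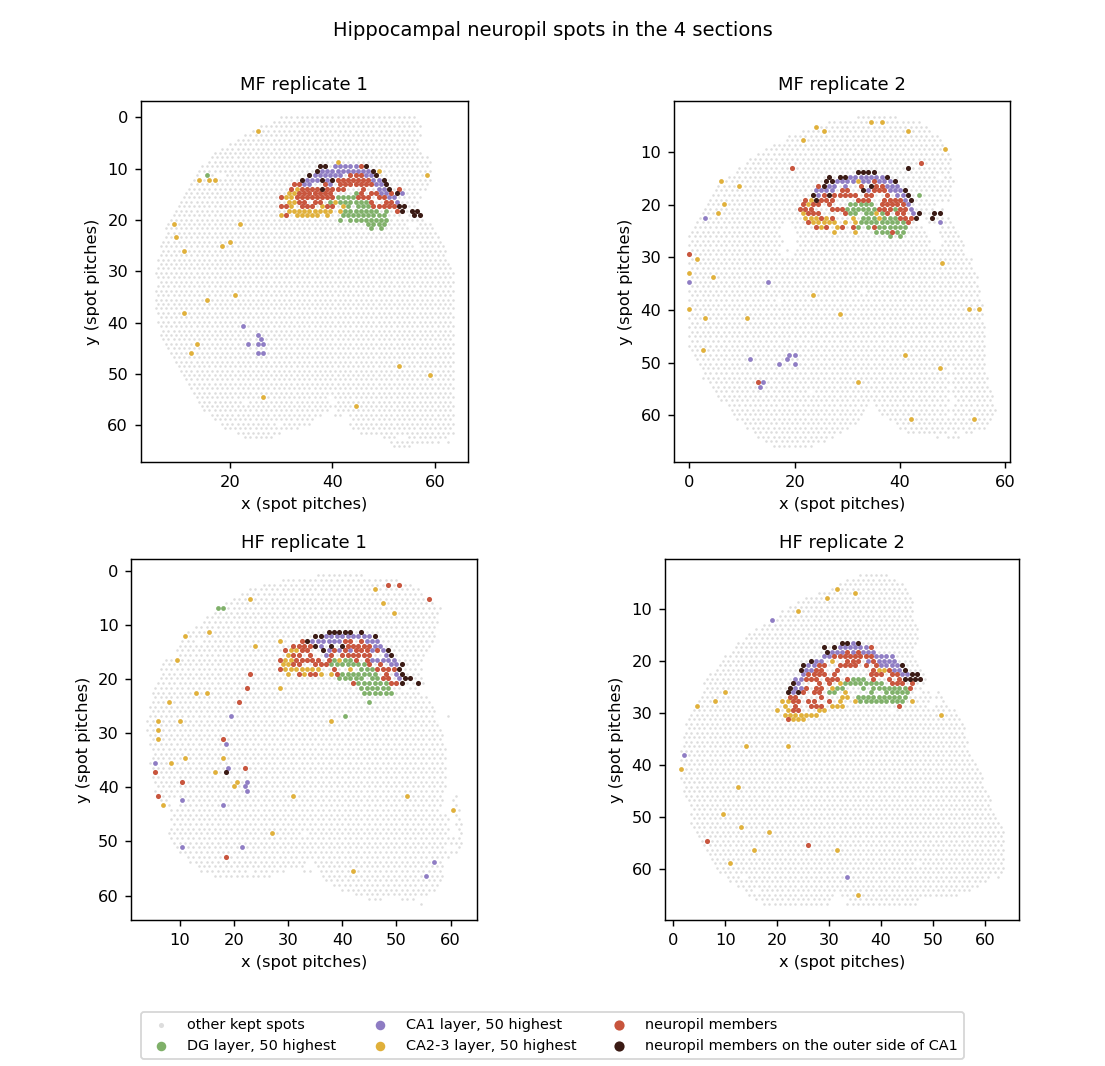
Positions of the kept spots in the 4 sections, in spot pitches on both axes. The 100 neuropil members of each section are red, or near black where they lie on the outer side of CA1, and lie around the DG (green), CA1 (purple) and CA2-3 (yellow) layer spots. Single members away from the hippocampus are most frequent in HF replicate 1.

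Depth differed between sections. Summed UMIs of the members were 2117908 and 916345 with MF and 927787 and 789359 with HF, and the median per member spot was 19656.5, 7943.5, 8791 and 6967.5 UMIs. MF replicate 1 was thus the deepest. Levels are given below as CPM, the UMIs of a gene per 1e+06 UMIs of the summed spots. When each spot was thinned to 5000 UMIs, a member held a median of 2949 to 2969.5 genes, against 2947 to 2958 in all other spots, with 0, 11, 20 and 24 shallower members left out. In a summed spot, fewer cells of a type and less RNA per cell cannot be told apart. Of the barcodes, 2474 lay under tissue in all 4 sections, which follows from the fixed barcode layout of the slides.

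The 5 neuropil genes of the rule had median log2 ratios of 1.91 to 3.25 in the members over all other spots, which is what the rule selects. Ddn, which encodes the postsynaptic protein dendrin, stood at 894 and 981 CPM in the MF members and 1148 and 1315 in the HF members, against 272 to 327 CPM in all other spots. Cabp7, a neuronal calcium-binding protein, stood at 421, 427, 434 and 502 CPM against 47.4 to 66.5. Wipf3, a regulator of actin, stood at 345, 356, 401 and 485 CPM against 76.8 to 105.5. Gm2115, a gene without a well-described role, stood at 154, 176, 162 and 238 CPM against 26.1 to 38.4. Thbs4, an extracellular matrix protein of the thrombospondin family, stood at 63.3, 94.9, 72.2 and 109 CPM against 7.58, 8.92, 9.97 and 10.99, in ascending order, in all other spots.

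Set against the cell layers instead, the 5 genes parted. Thbs4 was higher in the members than in the layers in all sections, with a median log2 ratio of 2.78. Cabp7 followed with 1.07, Ddn with 0.74 and Gm2115 with 0.26. Wipf3 was as high in the layers as in the members, with log2 ratios from −0.13 to −0.03, so within the hippocampus it did not separate neuropil from cell layers. In the deposited table of spatial autocorrelation, Moran's I of Ddn ranged from 0.509 to 0.661 over the sections, which placed it at ranks 20 to 62 of 16731 to 18235 features. Thbs4 had the lowest values of the 5, from 0.146 to 0.28.

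Among 4249 features of at least 50 CPM in the members of all 4 sections, 17 (0.4%) were at least 2-fold higher in the members than in all other spots in all 4 sections. The 5 neuropil rule genes are among them. The other 12 include genes of hippocampal excitatory neurons and of dendrites, and also Hopx, which was listed with the neurogenic niche genes. Hpca, which encodes the calcium sensor hippocalcin, led with 2021, 2028, 2100 and 2493 CPM against 584 to 792 elsewhere, a median log2 ratio of 1.71. Neurod6, a transcription factor of excitatory neurons, had a median log2 ratio of 1.62 and Igfbp4, a binding protein of insulin-like growth factors, one of 1.60. Nr3c2, the mineralocorticoid receptor, had 1.54. Prdm8, Hopx, Crym, Prkca and 2010300C02Rik followed with values down to 1.13. Camk2a, the kinase subunit whose mRNA is a classic dendritic transcript, stood at 1585, 1564, 1742 and 2128 CPM against 648 to 785, and Psd, a postsynaptic exchange factor, at 1375, 1463, 1712 and 1878 against 676 to 800. Arc, an activity-regulated gene whose mRNA travels into dendrites, completed the set with a median log2 ratio of 1.14. Under 2-fold in 1 section each were Nr4a3 (median 1.33), Sstr4, a somatostatin receptor (1.21), and Hsd11b1 (1.19).

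In the other direction, 11 of 4708 features (0.234%) of at least 50 CPM in the other spots were at least 2-fold lower in the members in all 4 sections. Baiap3, Hap1, Nrsn2, Vat1l, Resp18, Cbln1, Tmem255a and Slc17a6, the vesicular glutamate transporter typical of thalamus and hypothalamus, were among them, with median log2 ratios from −2.50 to −1.35, and Zcchc12, Prkcd and Zdhhc22 followed with −1.19 to −1.18. The list of thalamus genes was lower in the members in all 4 sections for 10 of 10 genes, with a median log2 ratio of −1.05. The hypothalamus list was lower for 11 of 13 genes with a median of −2.44, and the striatum list for 7 of 9 with −0.80. Over all 10391 features of at least 10 CPM, 1506 were higher and 2543 lower in all 4 sections, and the median log2 ratio was −0.05.

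Against the cell layer spots, 8 of 4249 features (0.188%) were at least 2-fold higher in the members in all 4 sections. These were Thbs4, Lcat, Gsn, Sdc4, Plekhb1, the microglia genes P2ry12 and Ctss, and the lipid receptor gene S1pr1. P2ry12, which marks resting microglia, stood at 75.5, 97.1, 98.1 and 70.9 CPM in the members against 29.0 to 39.5 in the layers. The lower side counted 13 of 4466 features (0.291%), of which Dsp, C1ql2 and Prox1 had chosen the DG spots. The other 10 included Igfbpl1, Neurod1, Lct, Sox11, Kctd4, Bhlhe22, C1ql3, Ptpro and Ablim3. Igfbpl1, Neurod1 and Sox11 are genes of immature neurons, and their median log2 ratios were −2.97, −1.85 and −1.62.

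Gene lists showed how cell types were spread. Of all 10291 features of at least 10 CPM, 2152 were higher in the members than in the layers in all 4 sections and 2545 lower, with a median log2 ratio of −0.04. All 24 measured astrocyte genes were higher in the members than in the layers in all 4 sections, with a median log2 ratio of 0.95, and 18 of 24 were also higher than in all other spots (median 0.41). Slc1a2, the main glutamate transporter of astrocytes, stood at 2454, 2761, 3043 and 2763 CPM against 1206 to 1740 in the layers. Of the microglia genes, 13 of 14 were higher than in the layers (1.15), as were 14 of 15 vessel genes (1.06). All 24 oligodendrocyte and myelin genes were higher than in the layers (1.14), while 17 of 24 were lower than in all other spots (−0.19). Myelin transcripts in the members thus lay between the layers and the rest of the section. Interneuron genes were higher than in the layers for 13 of 20 (0.66).

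The neuronal lists differed among themselves. Of 20 dendritic mRNAs, 19 were higher in the members than in all other spots in all 4 sections (median 0.43), and 13 were higher and 6 lower than in the layers (0.37). Camk2a, Psd, Shank1 and Map2 exceeded the layers in all 4 sections, with median log2 ratios of 0.45, 0.41, 0.50 and 0.35. Itpka and Nrgn were below the layers in all 4, with −0.38 and −0.50. Genes of excitatory neuron cell bodies were higher than in all other spots for 13 of 21 (0.49) and lower than in the layers for 13 of 22 (−0.45). Postsynaptic scaffold and signalling genes were higher than in all other spots for 14 of 23 (0.34), but against the layers 6 were higher and 10 lower (−0.03). GABA-A receptor subunits had a median of −0.29 against other spots and −0.12 against the layers. Glutamate receptor subunits had a median of −0.27 against the layers, where Gria1, an AMPA receptor subunit, gave −0.71 and Grin2b, an NMDA receptor subunit, −0.47. Synaptic vesicle genes hardly moved, at 0.02 against other spots and −0.07 against the layers. The members thus held less of the cell body genes than the layers and more than the rest of the section, so they were neuropil with some cell bodies by these markers.

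**Figure D2:**
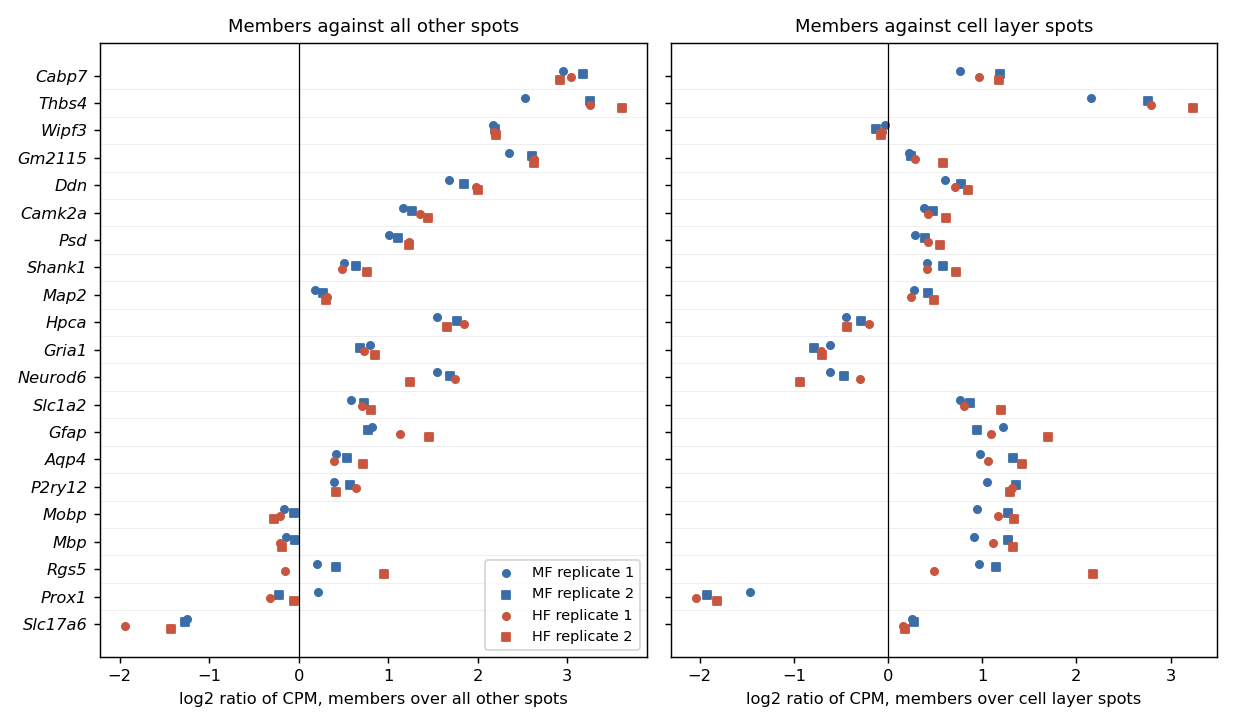
Log2 ratio of CPM of 21 genes in the members over all other spots (left) and over the cell layer spots (right), 1 point per section (MF blue, HF red, replicate 1 circles, replicate 2 squares). The 5 rule genes lie far right on the left side, while on the right Wipf3 sits at 0, astrocyte, microglia and myelin genes lie above 0, and Hpca, Gria1 and Neurod6 lie below 0.

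Within the members, genes were ranked by how their level followed the rule's score over the 100 spots of a section. The leaders Tmsb4x, Stum, Chn1, Ppp3ca, Cck, Pfn2, Igfbp4 and Kcnab2 reached median Spearman correlations of only 0.223 to 0.285 over the 4 sections. These points share a library, and sparse counts differ in depth between spots, so the ranking is a description and no more.

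The side of the hippocampus on which a member lay made a clear difference. Members nearest to CA1 were compared with members nearest to the DG, with edgeR's quasi-likelihood test on the summed counts of each side and the section as a block. Of 7098 genes tested, 27 (0.38%) were higher nearest CA1 and 46 (0.648%) higher nearest the DG at an adjusted p below 0.05 with a change of 1.2-fold or more. The 14 rule genes were fitted but not counted. In 15 of the 27 and 31 of the 46, all 4 levels of one side lay above all 4 of the other. The share of all tested genes with such a separation was not counted, so these counts have no background to be read against.

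Of the genes called nearest CA1, Sst had the largest difference. Sst, which encodes somatostatin, the peptide of a large class of inhibitory interneurons, had 686, 533, 1463 and 1489 CPM nearest CA1 and 226, 337, 386 and 275 nearest the DG. The groups did not overlap, and the log2 difference was 1.64 (SE 0.13, edgeR adjusted p = 4.65e-15). Levels were highest in members called the outer side of CA1. These were farther from the middle of the DG than their nearest CA1 layer spot, and had 1059, 607, 2163 and 2537 CPM. Members on the inner side had 329, 457, 369 and 567 CPM. Within a section they exceeded the members nearest the DG except in HF replicate 1 (369 against 386). Inner members alone were not tested against the DG side. The outer label rests on distance alone. It holds a member 1.73 pitches from the DG in HF replicate 2 and another 27.2 pitches away in HF replicate 1. Igfbp4 had 417, 386, 460 and 521 CPM against 188, 144, 173 and 183, a log2 difference of 1.35 (SE 0.13, adjusted p = 9.49e-12). Ptpn5, the striatal-enriched phosphatase that acts at synapses, was higher by 0.90, Mpped1 by 0.75, Ociad2 by 0.63 and Ppfia3 by 0.70. Ell2 (1.19), Yjefn3 (1.03) and Brinp2 (0.90) passed in 5 of 11, 6 of 11 and 6 of 13 alternatives (adjusted p up to 0.818), Pvalb in 6 of 13 (up to 0.726), Ociad2 in 7 of 13 (up to 0.851) and Ppfia3 in 8 of 13 (up to 0.689). Of the excitatory cell body genes, 2 of 18 tested were called nearest CA1, Mpped1 and Ociad2, and 1 nearest the DG, Stxbp6. Of the interneuron list, Sst, Npy (0.68), Pvalb (0.62) and Cck (0.53) rose on the CA1 side, and Ndnf (−1.25), Reln (−1.09) and Calb2 (−0.83) on the DG side, among 16 tested.

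Myelin genes belonged to the CA1 side, and astrocyte genes to the DG side. Mobp, Mag, Mbp and Cnp, all components of the myelin sheath, were higher nearest CA1 by 0.35 to 0.45 on the log2 scale. They were among 5 called of 22 tested oligodendrocyte and myelin genes, and none of that list was higher nearest the DG. Astrocyte genes showed 7 of 24 tested genes higher nearest the DG and 0 higher nearest CA1 by edgeR, with a median of −0.37. DESeq2 called 1 of them. An unadjusted edgeR p under 0.05 was reached by 16 of the 24, against 724 of all 7098 genes tested. Aqp4, the water channel of astrocyte endfeet, had 195, 274, 196 and 221 CPM nearest the DG and 104, 138, 111 and 87.9 nearest CA1, a log2 difference of −0.98 (SE 0.15, adjusted p = 2.4e-05). Gfap, an intermediate filament of astrocytes, had 437, 449, 335 and 725 CPM against 306, 324, 275 and 285, and Slc1a2, Slc1a3, Gja1 and Acsbg1 were also among the 7. The metallothioneins Mt1 and Mt2 were also higher on the DG side, by 0.46 and 0.48. The median log2 difference over all tested genes was −0.004.

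Other genes of the DG side were Kif26b (−1.88), Hspb8 (−1.37), the pericyte gene Rgs5 (−1.25), Cblb (−1.20), the metabotropic glutamate receptor gene Grm2 (−1.16), Btbd3 (−1.10), Stxbp6 (−0.95) and Pitpnm2 (−0.94). Btbd3, a regulator of dendrite orientation, had 207, 234, 324 and 275 CPM nearest the DG against 119, 96.5, 116 and 136 nearest CA1. Prox1 and C1ql2, which chose the DG layer spots, stood higher nearest the DG too, at 126 to 206 and 61.5 to 122 CPM, which the rule itself can give. Granule cell RNA in spots next to the DG layer moved with these genes, and its part in the result was not tested. Among dendritic mRNAs, Itpka and Kif5a rose on the CA1 side, by 0.43 and 0.51, while Camk2a (−0.35), Adcy1 (−0.40) and Eef2 (−0.45) rose on the DG side. DESeq2 called 11 genes in this comparison. Sst, Igfbp4, Aqp4 and Pitpnm2 passed the threshold in all 13 alternatives, DESeq2 included. No alternative of this comparison left out the members on the outer side of CA1. Without MF replicate 2 the count was 33, without MF replicate 1 it was 47, and on spots thinned to 5000 UMIs it was 41.

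**Figure D3:**
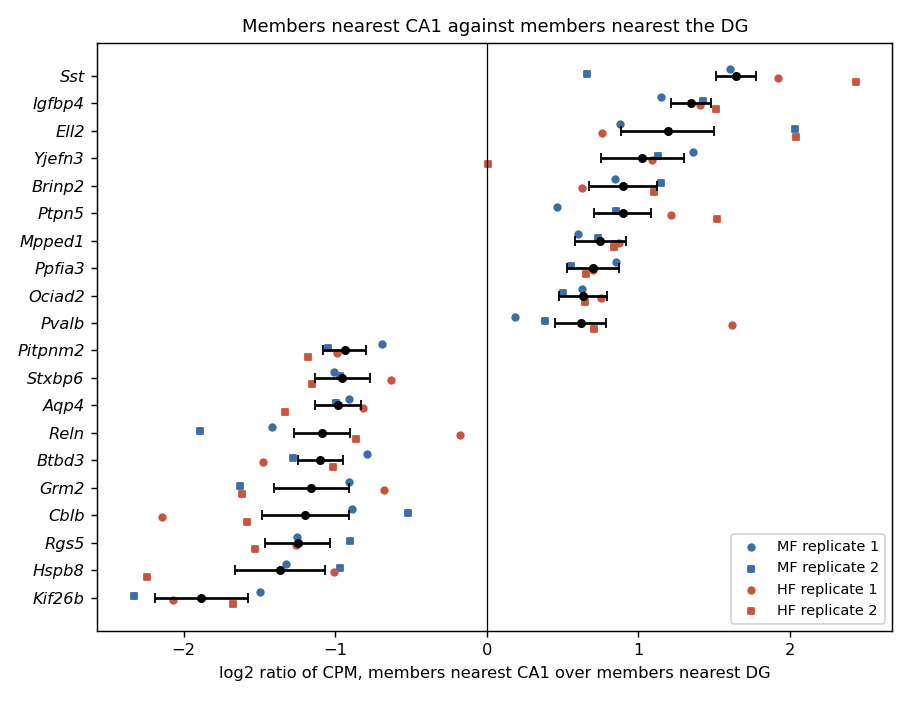
Log2 ratio of CPM in members nearest CA1 over members nearest the DG for the 20 named genes (black, fitted value ± SE; coloured points, the 4 sections). Sst and Igfbp4 lie furthest right at 1.64 and 1.35, and Kif26b furthest left at −1.88.

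The main question was whether the mothers' diet moved gene expression in the neuropil. With edgeR on the summed members, 2 sections against 2, 10098 genes were tested. Egr1, Sst and Arc were called higher in HF (3 genes, 0.0297%) and Pmch lower (1 gene, 0.0099%). An unadjusted p under 0.05 was reached by 537 genes. An exact permutation of 2 sections against 2 cannot fall below p = 0.333, so single genes were tested only within the fit across all genes. Both HF sections lay above both MF sections for 16.7% of the tested genes and below for 17.7%, and counts of separated sections are to be read against these shares.

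Egr1, an immediate early transcription factor that neurons switch on after activity, had 51.5 and 56.7 CPM in the MF members and 211 and 416 in the HF members. The gene lies on chromosome 18 (34859823 to 34864984, GRCm38). Both HF sections were above both MF sections, with a wide gap between the HF sections. The log2 fold change was 2.54 (SE 0.21, edgeR adjusted p = 2.28e-11), and it stayed past the threshold in all 16 alternatives (1.99 to 2.96). The highest adjusted p among them was 0.00208, with DESeq2. Taking the layers out one after the other only repeated the main fit. No Egr1 UMI was found in 36 and 61 of the 100 members in MF and in 23 and 10 in HF. The rise was not limited to the neuropil, since all other spots had 49.0 and 58.0 CPM in MF and 155 and 338 in HF, and the difference of the diet effects was 0.34 (SE 0.16, adjusted p = 1).

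Arc (chromosome 15, 74669083 to 74672570) had 103 and 101 CPM in the MF members and 222 and 172 in the HF members. The log2 fold change was 0.96 (SE 0.16, edgeR adjusted p = 0.00142). The call was lost with DESeq2 (adjusted p = 0.278), on thinned spots (0.133), without members that touched a layer spot (0.77) and without MF replicate 1 (0.199) or MF replicate 2 (0.0538), while the value stayed between 0.75 and 1.12 over 16 alternatives (adjusted p from 4.63e-08 to 0.77). In all other spots Arc had 49.9 and 45.6 CPM in MF and 101 and 74.9 in HF, and the diet effects differed by 0.09 (SE 0.14, adjusted p = 1).

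Other activity-regulated genes leaned the same way without a call. Of 22 tested immediate early genes, 20 had a positive fold change and 13 had both HF sections above both MF sections, against 16.7% of all genes. The median was 0.34, against 0.002 over all genes. Egr1 was the only one called, 8 had an unadjusted p under 0.05, and DESeq2 called 1. Junb had 38.7 and 41.5 CPM in MF and 75.4 and 55.7 in HF (0.74, adjusted p = 0.62), Nr4a1 had 53.4 and 54.6 against 94.8 and 74.7 (0.67, adjusted p = 0.55), and Nr4a3 had 86.4 and 99.3 against 154 and 118 (0.59, adjusted p = 0.62). Egr3 overlapped between the diets, with 45.8 to 55.7 CPM in MF and 49.4 CPM in HF replicate 2. The summed level of the list was 1349 and 1390 CPM in the MF members and 1790 and 1886 in the HF members, and in all other spots it was 1217 and 1260 against 1541 and 1670. Of 15 clock genes, which follow the hour of the day, 0 were called by edgeR or DESeq2 and 1 had an unadjusted p under 0.05, with a median of 0.13. Of these, 11 were positive, 5 had both HF sections above both MF sections and 0 had them below. The clock genes thus leaned the same way as the activity-regulated genes, but less steadily. Over 14 alternatives the clock median ranged from −0.042 to 0.208, and the immediate early median from 0.203 to 0.485. The part of the clock genes in that lean was not tested.

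Sst (chromosome 16, 23889573 to 23890958) had a diet difference in the neuropil that differed from that in the rest of the section. The MF members had 518 and 446 CPM and the HF members 880 and 1045, and the groups did not overlap. The log2 fold change was 0.99 (SE 0.13, edgeR adjusted p = 7.12e-06). In all other spots the level was flat, at 441 and 534 CPM in MF and 504 and 500 in HF. The test of the difference between these diet effects called 2 of 14464 genes (0.0138%), Sst with 0.93 (SE 0.12, adjusted p = 2.3e-11) and Pmch. The same test against the cell layer spots called 3 of 11959 genes (0.0251%), Sst with 1.37 (SE 0.21, adjusted p = 0.000525), Pmch and Ttr. Sst had 303 and 441 CPM in the MF layers and 385 and 189 in the HF layers.

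The Sst difference lay in a small share of the members. Members on the outer side of CA1, those farther from the middle of the DG than the nearest CA1 layer spot, numbered 22, 26, 24 and 21. They had 1059 and 607 CPM of Sst in MF and 2163 and 2537 in HF. Members on the inner side of CA1 had 329 and 457 CPM in MF and 369 and 567 in HF, and members nearest the DG had 226 and 337 against 386 and 275. The diets overlapped on the inner side of CA1 and nearest the DG, and did not overlap on the outer side.

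Few spots carried it. The 5 members with the most Sst held 38.9% and 18.6% of the members' Sst UMIs in MF and 52.2% and 61.0% in HF, and 5, 3, 4 and 4 of these 5 lay on the outer side of CA1. The highest single spot reached 6504 and 3554 CPM in MF and 13595 and 17977 in HF. The median member had 311 and 398 CPM in MF and 447 and 325 in HF, so the typical spot did not differ between the diets in a single direction. Without the 5 highest spots the levels were 335 and 378 CPM in MF and 447 and 434 in HF. Without the outer CA1 members, an alternative chosen after seeing the data, the log2 fold change was 0.29 (adjusted p = 0.972) and its difference from all other spots 0.21 (adjusted p = 1, range over 15 alternatives 1.61e-13 to 1). With the 60 highest spots as members the change was 0.62 (adjusted p = 0.206), and without members that touched a layer spot it was 0.39 (adjusted p = 1). Over the 16 alternatives the adjusted p ranged from 4.47e-16 to 1, and the value stayed positive. Without MF replicate 2 the difference from all other spots was 0.71 and was not called (adjusted p = 0.101). The difference from the cell layers was not called by DESeq2 (1.42, adjusted p = 1) nor without MF replicate 2 (1.03, adjusted p = 0.999).

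Other interneuron genes were set beside Sst. Of 20 tested, Sst was the only one called and 11 had a positive fold change, with a median of 0.09. In 4 both HF sections lay above both MF sections and in 2 below, against 16.7% and 17.7% of all genes. Npy, a peptide that many somatostatin cells also make, had 222 and 229 CPM in the MF members and 285 and 315 in the HF members (0.41, SE 0.14, adjusted p = 0.86), and on the outer side of CA1 it had 237 and 303 against 497 and 523. Its diet effect differed from that in all other spots by 0.54 (adjusted p = 0.17). The GABA-synthesizing enzyme genes Gad1 and Gad2 had 49.1 and 30.6 against 36.6 and 58.3 CPM and 262 and 234 against 288 and 294. Lhx6, a transcription factor of Sst and Pvalb interneurons, was flat at 17.0 and 19.6 against 16.2 and 19.0 CPM. Sstr4, a receptor for somatostatin, had 87.8 and 115 CPM in MF and 140 and 133 in HF (0.48, SE 0.17, adjusted p = 0.88).

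**Figure D4:**
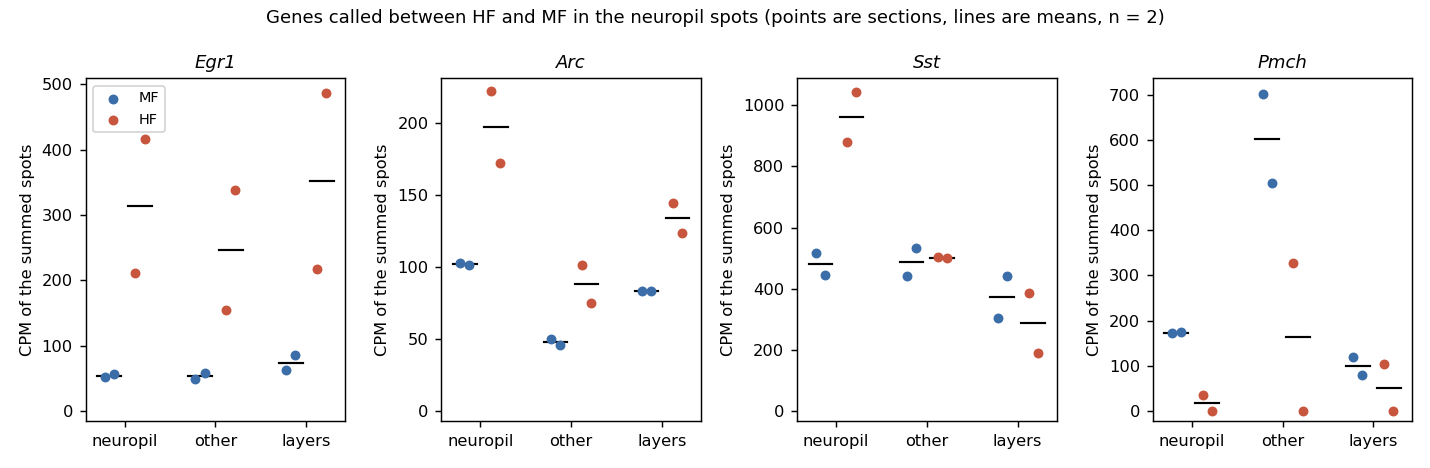
CPM of the 4 genes called between HF and MF in the members, in all other spots and in the cell layers (points, sections; lines, means of n = 2). Both HF points of Egr1 and Arc lie above both MF points in all 3 sets of spots, those of Sst in the neuropil but not in the other spots or layers, and Pmch is at or near 0 in HF replicate 2 in all 3.

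**Figure D5:**
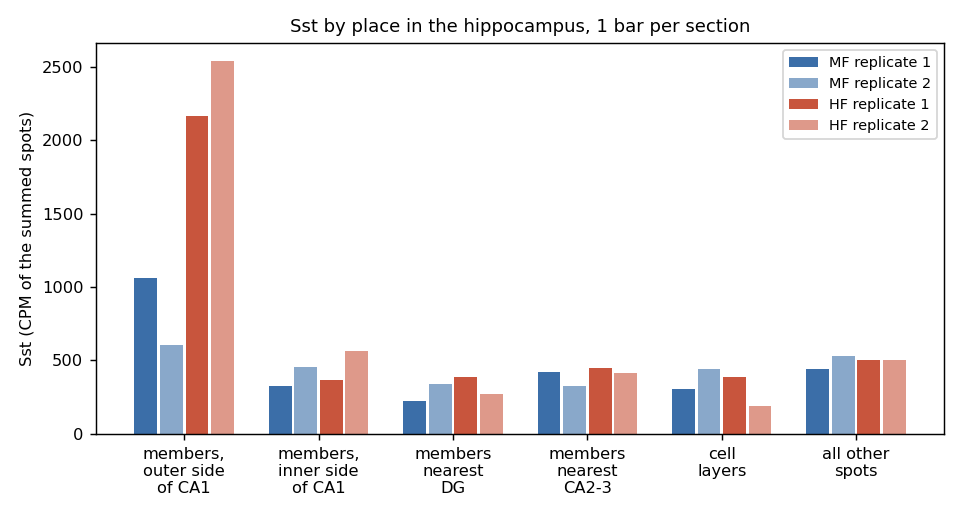
Sst CPM by place, 1 bar per section (MF blue, HF red, replicate 2 paler), from 0. On the outer side of CA1 the bars reach 1059 and 607 in MF and 2163 and 2537 in HF, and in the other 5 places they lie between 189 and 567.

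Pmch, the precursor of melanin-concentrating hormone, is made by neurons of the lateral hypothalamus. The members had 172 and 175 CPM in MF, and 34.5 and 0 CPM in HF. In HF replicate 2 the gene was at 0 of 789359 member UMIs, and at 0.719 CPM in all other spots, against 701, 504 and 328 CPM in the other spots of the other sections. In MF replicate 1 all 100 members held a Pmch UMI, with a median of 164 CPM, so the transcript was spread over all members of that section. The fitted log2 fold change was −3.21 (edgeR adjusted p = 4.64e-09). Without HF replicate 2 it was −2.32. Without HF replicate 1 the only HF section is at 0, and the fitted −10.8 depends on the prior count and is no bound. DESeq2 gave −3.31 and did not call it (adjusted p = 1, range over 16 alternatives 4.28e-41 to 1). Its diet effect differed from that in all other spots by −1.39 (adjusted p = 0.00118), a call kept in 9 of 15 alternatives and lost among others with DESeq2 (adjusted p = 1), on thinned spots (0.922), without HF replicate 1 (1) and without MF replicate 2 (0.394). Against the cell layers the difference was −2.29, but with only clustered layer spots it was −0.13 (adjusted p = 0.999), and it was not called by DESeq2 or without HF replicate 1 (adjusted p = 1 in both). The whole hypothalamus list summed to 700 and 776 CPM in the MF members and 523 and 810 in the HF members, with 1 of 6 tested genes called, and how much hypothalamus each section held was not tested.

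Ttr, the transthyretin gene of the choroid plexus, was not called between the diets in the members, with 3779 and 2380 CPM in MF and 3200 and 4903 in HF (0.39, adjusted p = 0.88, but called with 0.66 without HF replicate 1, adjusted p = 6.78e-08). It was called for its diet effect against the layers (0.82, SE 0.14, adjusted p = 0.00296), where the layers had 2135 and 1610 against 1338 and 1424. That call was lost with clustered layer spots only (0.60, adjusted p = 0.62), with DESeq2 (0.106), with the 60 highest spots (0.468), without isolated members (1), and without MF replicate 1 (0.264) or MF replicate 2 (0.999).

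Oligodendrocyte and myelin genes were lower in HF as a list, without a call. Of 24 tested, 21 had a negative fold change, and 20 had both HF sections below both MF sections, against 17.7% of all genes. The median was −0.38 and stayed between −0.46 and −0.33 over 14 alternatives. No member of the list was called by edgeR or DESeq2, and 18 had an unadjusted p under 0.05. Opalin had 220.5 and 240.1 CPM in MF and 111 and 165 in HF (−0.74, SE 0.16, adjusted p = 0.096). Cldn11, a tight junction protein of myelin, had 824 and 770.4 against 558 and 549 (−0.53, adjusted p = 0.24) and Mbp had 8079 and 9367 against 6890 and 7099 (−0.32, adjusted p = 0.88). The 24 genes summed to 25830 and 27200 CPM in the MF members and 20430 in both HF members. In all other spots they summed to 28850 and 30050 against 23860 and 25830, and in the layers to 13910 and 11850 against 9182 and 8225. The median difference of the diet effect from that in all other spots was −0.14, with 0 of 24 called, so a loss particular to the neuropil was not shown.

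Synaptic genes leaned up by small amounts. Over all tested genes, 16.7% had both HF sections above both MF sections and 17.7% had them below. Of the 20 dendritic mRNAs, 19 had a positive fold change and 9 had both HF sections above both MF sections, with none below. Arc alone was called, and the median was 0.17. Camk2a (0.30, SE 0.12), Psd (0.34, SE 0.12) and Shank1 (0.22, SE 0.16) had both HF sections above both MF sections without a call. Of 23 postsynaptic scaffold and signalling genes, 19 were positive and 12 had both HF sections above, with a median of 0.16 and none called by edgeR or DESeq2 (3 with an unadjusted p under 0.05). Genes of excitatory neuron cell bodies leaned further the same way, with a median of 0.25. Of 21 tested, 17 were positive, 8 had both HF sections above and 1 had both below, 0 were called by edgeR or DESeq2 and 5 had an unadjusted p under 0.05. The part of cell body content in the lean of the synaptic lists was not tested. Glutamate receptor subunits (0.07), GABA-A receptor subunits (0.06) and synaptic vesicle genes (0.01) had medians close to that of all genes.

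No diet difference was detected in the pathway that handles folate. Of 30 measured folate and one-carbon genes, 20 had enough counts to be tested. None was called by edgeR or DESeq2 and 1 had an unadjusted p under 0.05. The median was −0.02, with 9 positive and 11 negative. In 2 both HF sections lay above both MF sections and in 1 below, against 16.7% and 17.7% of all genes. Ahcyl1 had 747 and 768 CPM in the MF members and 763 and 703 in the HF members (−0.04, SE 0.12).

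Astrocyte and microglia genes showed no detected diet difference. Over 14 alternatives their medians ranged from −0.07 to 0.11 and from −0.29 to 0.08. Astrocyte genes had a median of 0.01 (0 of 24 called by edgeR or DESeq2, 0 with an unadjusted p under 0.05) and microglia genes one of 0.01 (0 of 14 by both tools, 1 unadjusted). Gfap had 305 and 337 CPM in the MF members and 303 and 351 in HF. Vessel genes had a median of −0.02 (0 of 15 by both tools, 1 unadjusted). The metallothioneins leaned down with a median of −0.22. Mt2, a metal-binding stress protein, had 898 and 897 against 643 and 682 CPM (−0.44, adjusted p = 0.53), and its level in all other spots was 541 and 488 against 346 and 283.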

How the data were processed

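Visium-FFPE libraries of 4 coronal sections were analysed. Per the file headers the authors ran Space Ranger 2.0.0, with mm10 as the genome build and Seurat among the tools in the submitters' processing notes. The deposited matrices hold raw UMI counts of 19465 features per spot under tissue, without normalization. The deposited spatial table holds the score Moran's I per feature, a measure of how alike neighbouring spots are, and its p-values were not used. Following the study's filter, spots needed 500 UMIs and 250 genes. The members and the 31 gene lists were chosen with earlier results of these data known.

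UMI counts were summed over the members, all other spots, the cell layers or the sides of each section and tested with edgeR 4.0.16 (TMM, filterByExpr, quasi-likelihood F test, Benjamini-Hochberg adjustment, called at an adjusted p under 0.05 and at least 1.2-fold). The diet fit used the members of the 4 sections alone. Differences of diet effects and the CA1 against DG comparison had the section as a block. A standard error is the log2 fold change divided by the root of F. The fits were also run on simulated counts with the same spread for every gene. Those counts lacked the unequal spread between real sections, so they cannot show how the fits behave on these data. Alternatives were DESeq2 1.42.0, library size alone, no filter, spots thinned to 5000 UMIs, 60 or 150 members, layers taken out one after the other, members left out, each section left out, the replicate block, and a rank sum test over single spots as in the methods. Taking the layers out one after the other left the diet fit of the members unchanged, so it is no separate check of that fit. Leaving out 1 section left a single section in that diet, so such a fit holds no spread within that diet. Section totals ranged from 34983708 to 90098381 UMIs. Leaving out members over 6 pitches from the layers or on the outer side of CA1, and using clustered layer spots only, were chosen after seeing the data. With n = 2 per diet, p-values measure the spread between these sections.

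Named genes were the 14 rule genes, members of the lists, called genes (all where 20 or fewer, otherwise up to 10 each way with the largest change and non-overlapping sections), the 15 highest by median log2 CPM ratio against other spots and the 10 highest and 10 lowest against the layers at 50 CPM or more, and the 8 highest by score correlation. Genes lower than in other spots were named after their values were seen. Positions come from GENCODE vM21 (GRCm38), in which 19451 features were matched. Some genes are not reported here.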

Additional observations from a re-analysis of the deposited data

Results flagged for a closer look

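Between sets of spots in the same sections, 5 differences of the diet effect passed the test. For Sst the effect in the neuropil spots exceeded that in all other spots by 0.93 and that in the cell layer spots by 1.37 on the log2 scale. For Pmch the differences were −1.39 and −2.29, with the gene at 0 in the members and in the layers of HF replicate 2. For Ttr it exceeded that in the layers by 0.82. All 3 genes lost calls when sections or spots were changed, as given beside each in the report.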

How the results depend on the processing

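With 4 genes called between HF and MF in the neuropil spots, DESeq2 called 2, the fit with no filter on low counts called 10, and the rank sum test over single spots, which treats spots of 1 section as independent, called 68 (9 higher, 59 lower). Leaving out 1 section gave 5 to 28 calls, with 28 without HF replicate 1 and 18 without HF replicate 2. For differences of the diet effect from all other spots (2 genes), the counts were 1 with DESeq2, 1 on thinned spots, 1 without members on the outer side of CA1, 4 with 150 members and 0 with 60 members (577 with an unadjusted p under 0.05 by edgeR), and 0 to 3 with 1 section left out, the 0 being without MF replicate 2 (492 unadjusted). For differences from the cell layers (3 genes), they were 0 with DESeq2 (26 unadjusted), 6 with no filter, 6 on thinned spots, 7 with 150 members, 5 without members over 6 pitches from the layers, 1 with clustered layer spots only, and 1 to 34 with 1 section left out (34 without HF replicate 1, 1 without MF replicate 2). Of the 73 genes between the CA1 and DG sides, DESeq2 called 11, thinned spots 41, 60 members 44, 150 members 141, and fits without 1 section 33 to 85.

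The count of genes at least 2-fold higher than in all other spots went from 17 to 29 at a minimum of 20 CPM, and was 20 to 22 with 1 section left out. That against the cell layers went from 8 to 3 on thinned spots, 14 without isolated members and 19 at a minimum of 20 CPM, and was 10 to 39 with 1 section left out, 39 of them without MF replicate 1, 16 without MF replicate 2 and 14 without HF replicate 1. The same replicate number did not pair the sections (correlation of their deviations 0.048). With the replicate block there were 5 calls between the diets, 1 difference from all other spots and 7 from the cell layers.

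Over the alternatives of the named called genes, 303 values kept their direction and stayed past the threshold, 81 kept their direction and fell short, and 0 changed sign. Diet medians of some gene lists did change sign. Those of glutamate receptor subunits ranged from −0.122 to 0.128, and those of folate genes kept their sign in 9 of 14 alternatives. The immediate early, dendritic and myelin lists kept theirs in all 14. Precision was limited by 2 sections per diet, by 14 to 23 members nearest the DG, and by depth, with 24 members of HF replicate 2 under 5000 UMIs. The cause of these shifts was not tested.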
